A study of Homo sapiens with 12 samples.

Results

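AP-1 is a family of transcription factors that bind DNA as pairs through a basic leucine zipper (bZIP). Its genes were followed in OCI-AML3, an established line of human acute myeloid leukaemia cells, after 24 h of 4 treatments. The members were the rows of the deposited count table named FOS, FOSB, FOSL1, FOSL2, JUN, JUNB, JUND, ATF3, MAFF and BATF3, which are 10 of the 54628 gene symbols in the table. Each group held 3 libraries of poly(A) RNA: cells with the solvent DMSO, with venetoclax (ABT199), with an ERK inhibitor (ERKi, named compound 27 in the labels), or with ABT199 and ERKi together. Venetoclax blocks the survival protein BCL2, and ERK is the last kinase of the RAS, RAF and MEK cascade. The series, by its title, asks how ERK inhibition overcomes resistance to venetoclax. All groups are 1 cell line at 1 time, and no dose is given in the labels.

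The FOS proteins (FOS, FOSB, FOSL1 and FOSL2) cannot pair with each other and mostly pair with JUN proteins. The JUN proteins (JUN, JUNB and JUND) also pair among themselves. FOS and JUN are immediate early genes, switched on within minutes of a growth signal, and ERK feeds into them at the gene and at the protein. ERK phosphorylation also stabilises FOS family proteins, and FOSL1 is widely used as a readout of a lasting ERK signal. ATF3, MAFF and BATF3 are small bZIP proteins: ATF3 is a stress-induced factor, MAFF lacks an activating domain, and BATF3 pairs with JUN proteins and is known for its role in dendritic cells. RNA levels, as given here, measure neither these proteins nor their phosphorylation.

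Promoter sequence was matched in RefSeq (GRCh38) for 8 of the 10 genes, all but FOSL1 and BATF3. Several members carried a cyclic AMP response element core, TGACGT, in the 250 bases before a RefSeq start, searched on both strands. FOS, FOSB, FOSL2, JUND and MAFF did so, in 5 of the 10 windows of the 8 genes, against 7.1% of the 35116 promoter windows of that length in the reference. The full palindrome TGACGTCA, which contains that core, lay before JUND and MAFF and in 1.65% of all windows. JUN and ATF3 had the related TGACATCA, found in 2.37% of windows, and 0 of the member windows had the AP-1 site TGACTCA (4.2% of windows) or the CArG box of serum response factor (1.16%). A match is a run of letters and not a shown binding site, and ATF3 and MAFF each have 2 windows. Only 250 bases before each start were searched. Sites further upstream would be missed, so 0 matches do not show that a gene lacks a site. The sequences below run 5′ to 3′ on the strand of the gene, with these matches in capitals. FOS, FOSB and JUND are shown because they rose with ERKi, and JUNB because it moved little. ATF3, which has a match and fell with ERKi, is not shown. The FOS and FOSB stretches are shorter than the window searched, as they stop at the base before the GENCODE gene model. Whether a match goes with the change of a gene was not tested. The stretches of JUN, FOSL2 and MAFF are 30 bases around the match. The windows of these 3 genes lie wholly inside their GENCODE gene models, whose start is upstream of the RefSeq start used here, so these matches fall within the gene positions given below. The JUND window holds the palindrome, which matches on both strands, and a separate core on the opposite strand.
FOS (chr14:75278578-75278773, plus strand): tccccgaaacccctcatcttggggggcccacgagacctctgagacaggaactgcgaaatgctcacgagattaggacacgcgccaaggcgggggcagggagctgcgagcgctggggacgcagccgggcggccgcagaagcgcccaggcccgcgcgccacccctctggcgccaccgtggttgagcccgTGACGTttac
FOSB (chr19:45467746-45467994, plus strand): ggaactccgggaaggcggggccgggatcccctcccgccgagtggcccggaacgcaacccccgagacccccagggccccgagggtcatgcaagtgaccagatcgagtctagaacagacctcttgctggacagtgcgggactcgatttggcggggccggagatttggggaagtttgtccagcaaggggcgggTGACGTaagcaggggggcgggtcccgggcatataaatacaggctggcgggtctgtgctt
JUND (chr19:18281623-18281872, minus strand): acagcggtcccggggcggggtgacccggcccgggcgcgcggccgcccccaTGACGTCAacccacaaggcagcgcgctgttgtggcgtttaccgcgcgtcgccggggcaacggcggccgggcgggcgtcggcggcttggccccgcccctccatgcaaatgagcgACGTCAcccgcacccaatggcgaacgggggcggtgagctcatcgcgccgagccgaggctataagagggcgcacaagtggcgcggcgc
JUNB (chr19:12791236-12791485, plus strand): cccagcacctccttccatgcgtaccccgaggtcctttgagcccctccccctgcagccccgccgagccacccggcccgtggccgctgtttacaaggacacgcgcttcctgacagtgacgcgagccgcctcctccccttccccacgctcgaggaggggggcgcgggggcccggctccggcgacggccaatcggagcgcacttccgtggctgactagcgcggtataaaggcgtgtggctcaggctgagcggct
JUN (chr1:58784096-58784125, minus strand): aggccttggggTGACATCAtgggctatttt
FOSL2 (chr2:28392780-28392809, plus strand): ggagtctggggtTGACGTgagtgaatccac
MAFF (chr22:38201929-38201958, plus strand): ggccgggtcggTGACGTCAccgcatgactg

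Library totals ran from 19199296 to 21275065 counts, and all 10 members were among the 15173 genes that passed the filter on low counts. DMSO replicate 1 stood apart, with a chi-square over degrees of freedom of 16.72 and 15.78 when set against DMSO replicates 2 and 3, where the other replicate pairs gave 2.29 to 5.24. Of 12 markers of a myeloid leukaemia line, 10 were above 1 CPM (the count relative to the scaled library size) with DMSO, and KIT and CD34 were below 0.05 CPM. The sum of these 12 markers also moved with treatment, from 1430 to 1470 CPM with DMSO and 1350 to 1390 with venetoclax to 4690 to 4830 with ERKi and 6140 to 6370 in the combination. Most of that change was LYZ, lysozyme, at means of 209, 176, 2430 and 3990 CPM in that order. In the same order MPO was at 1.72, 1.75, 0.996 and 3.11 CPM, and MEIS1 at 39.1, 40.7, 47.6 and 40.1. The 4 T cell markers summed to at most 0.101 CPM in any library. The 6 fibroblast markers summed to 6.23 CPM in DMSO replicate 1, 20.9 and 35 in the other DMSO libraries, 13.2 to 24.4 with venetoclax, 10.4 to 25.2 with ERKi and 2.1 to 2.48 in the combination. Outside the combination these were mostly COL1A1 and COL1A2. The part of the myeloid and fibroblast markers in the results below was not tested. In bulk RNA, fewer cells that express a gene and less RNA per cell cannot be told apart.

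With DMSO, the RNA of the 10 members was mostly JUNB, FOSL2 and JUND. Levels of different genes are compared here as CPM per kilobase of exon, with exon lengths of GENCODE 29. The length is the union of all annotated exons of a gene, and the transcripts present may be shorter. The order of the genes depends on this choice, and other lengths were not tried. JUNB, known as a brake on JUN in many cells, stood at 23.2 ± 3 and FOSL2, a later member of the FOS family, at 22.9 ± 1.19 CPM per kb (SD, n = 3), and their libraries overlapped. JUND, usually the steadily expressed JUN gene, followed at 17.8 ± 2.55, and FOS at 9.55 ± 0.447. The level of JUN itself was 1.89 ± 0.0801, below FOSL1 (4.74 ± 0.202) and BATF3 (2.8 ± 0.414). MAFF (0.77 ± 0.134), ATF3 (0.377 ± 0.0746) and FOSB (0.202 ± 0.063) were lowest, and their libraries did not overlap in that order. With ERKi the order became FOSL2 (78.3 ± 0.398), FOS (49.1 ± 1.68), JUND (28.2 ± 1.02), JUNB (26.2 ± 1.85) and JUN (6.05 ± 0.535), where only JUND and JUNB overlapped. BATF3 (0.241 ± 0.0333) dropped to the level of ATF3 (0.235 ± 0.0414), with overlapping libraries.

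**Figure D1:**
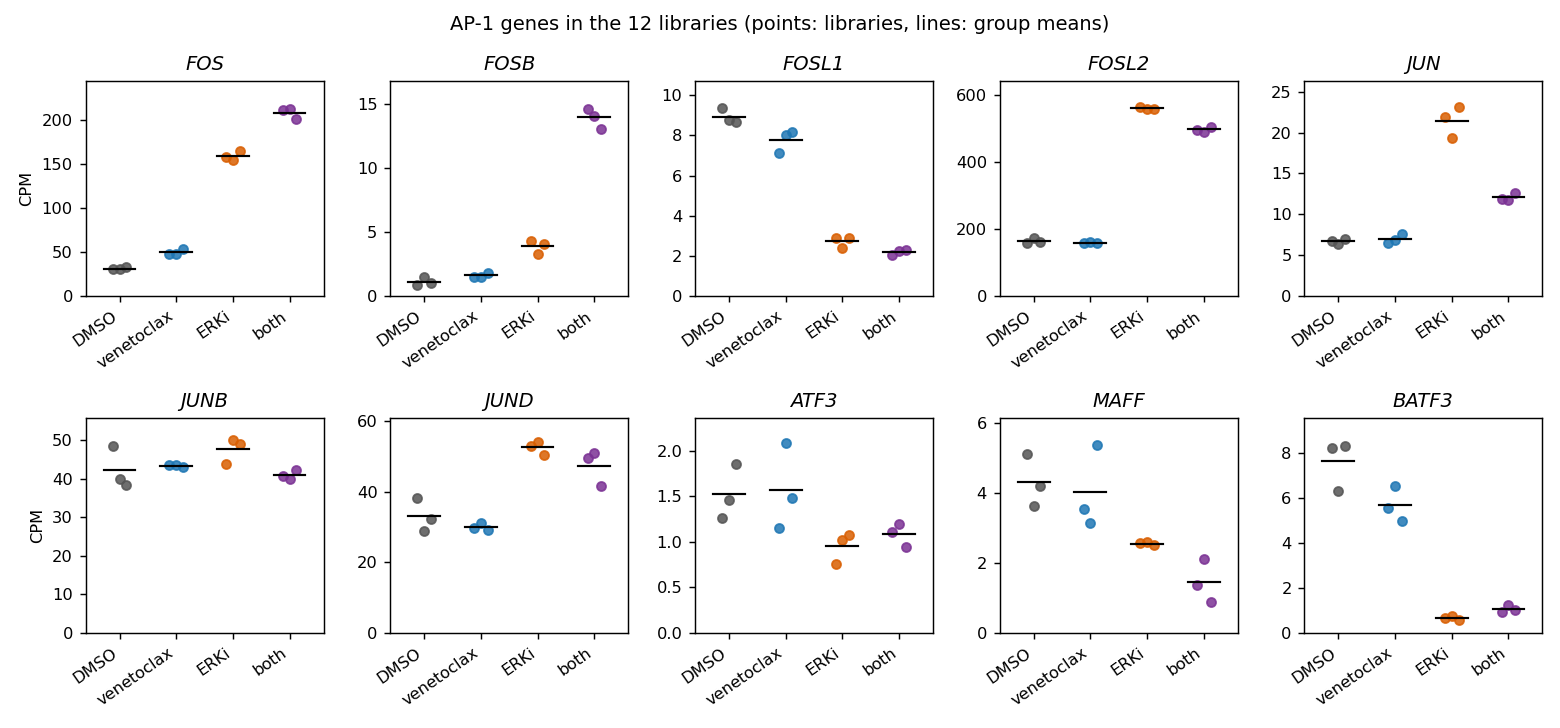
CPM of the 10 AP-1 genes (y axes, linear from 0) in the 4 groups (x axes); points are libraries and black lines group means, n = 3. FOS, FOSB, FOSL2 and JUN are high in the ERKi and combination libraries, FOSL1 and BATF3 are low there, and FOSB is highest in the combination, at 13.1 to 14.6 CPM.

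With ERKi alone, set against DMSO, every one of the 10 members passed the threshold of an adjusted p under 0.05, with 6 higher and 4 lower. The rises were FOS, FOSB, FOSL2, JUN, JUND and, weakly, JUNB. The falls were FOSL1, BATF3, MAFF and, weakly, ATF3. Across all genes tested, 69.7% were called (34.5% higher and 35.2% lower), so most genes were called as well. The median log2 fold change of the members was 0.42, and that of all genes was 0.01.

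FOS, on chromosome 14 (75278774 to 75282230), held 30.1, 30.1 and 32.6 CPM in the DMSO libraries and 158, 154 and 165 with ERKi. The groups lay far apart, and the log2 fold change was 2.36 (SE 0.0583, edgeR adjusted p = 5.38e-15), a 5.14-fold rise. FOSL2, on chromosome 2 (28392448 to 28417312), held 157, 173 and 161 CPM with DMSO and 564, 560 and 558 with ERKi, and rose 3.42-fold (1.77 on the log2 scale, SE 0.0422, adjusted p = 3.52e-15). The ERKi libraries agreed within a few CPM, and FOSL2 gave more counts than any other member in every group. FOSB, a close relative of FOS on chromosome 19 (45467995 to 45475179), was scarce: 17, 32 and 22 counts with DMSO and 90, 71 and 88 with ERKi. All ERKi libraries lay above all DMSO libraries, a 3.43-fold rise (1.78 on the log2 scale, SE 0.2, adjusted p = 5.66e-07).

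FOSL1, also called FRA-1, moved the other way. On chromosome 11 (65892049 to 65900573), it held 9.37, 8.76 and 8.68 CPM with DMSO and 2.89, 2.4 and 2.89 with ERKi. The groups did not overlap, and it was 3.27-fold lower (-1.71 on the log2 scale, SE 0.134, adjusted p = 5.77e-09). FOSL2 thus went from 4.41 to 5.22 times the level of FOSL1 per kilobase in the DMSO libraries to 51 to 61.5 times with ERKi. FOSL1 made up 12.1% to 13.7% of the summed FOS family RNA per kilobase with DMSO and 0.997% to 1.18% with ERKi, while the share of FOSL2 was 60.3% to 63% and 59.5% to 61.3%.

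The JUN family split by size of change. JUN, on chromosome 1 (58780788 to 58784327), held 6.72, 6.41 and 6.97 CPM with DMSO and 21.9, 19.4 and 23.1 with ERKi. It rose 3.2-fold, with no overlap of the groups (log2 fold change 1.68, SE 0.0991, adjusted p = 1.5e-10). JUND, on chromosome 19 (18279760 to 18281622), held 38.2, 28.8 and 32.3 CPM with DMSO and 53, 54.2 and 50.5 with ERKi (0.67, SE 0.0893, adjusted p = 4.26e-06). The most even of the 3 was JUNB, on chromosome 19 (12791496 to 12793315), with 48.5, 39.9 and 38.4 CPM with DMSO and 43.9, 50.2 and 49.1 with ERKi. Its groups overlapped, and a log2 fold change of 0.18 (SE 0.0759) had an adjusted p of 0.0484. That call was lost without DMSO replicate 2 or 3, ERKi replicate 2 or 3, or any 1 library of the other two groups (adjusted p from 0.0502 to 0.26). It held without DMSO replicate 1, the only DMSO library that reached into the range of the ERKi libraries. The log2 fold change ran from 0.1 to 0.28 over all 20 alternatives, of which 7 kept the call. JUNB overlaps HOOK2 on the opposite strand, and FOSB overlaps ERCC1. Reads of such gene pairs may be shared, as no source used here gives the strand setting of the counting. HOOK2 (-0.22, adjusted p = 0.0775) and ERCC1 (-0.17, adjusted p = 0.0521) were not called with ERKi.

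The remaining 3 members fell. BATF3, on chromosome 1 (212686418 to 212699985), had the largest fall among the members, from 8.21, 6.31 and 8.3 CPM with DMSO to 0.663, 0.739 and 0.559 with ERKi. It was 11.5-fold lower (log2 fold change -3.53, SE 0.207, adjusted p = 1.35e-10), from 134 to 175 counts per library down to 12 to 16. MAFF, on chromosome 22 (38200767 to 38216511), went from 5.12, 3.63 and 4.22 CPM to 2.56, 2.59 and 2.52, without overlap (-0.76, SE 0.249, adjusted p = 0.0125). PLA2G6, which overlaps MAFF on the opposite strand, rose by 1.09 (adjusted p = 6.91e-08). ATF3, on chromosome 1 (212565334 to 212620777), was near the limit of the counting, with 26, 31 and 39 counts with DMSO and 16, 22 and 23 with ERKi. Its log2 fold change of -0.68 (SE 0.276, adjusted p = 0.0376) lost its call without DMSO replicate 2 (0.0557) or 3 (0.15) or ERKi replicate 1 (0.127) or 2 (0.0544), with DESeq2 (0.0767), without a filter (0.0666) and with scaling by library totals alone (0.0668). The counts of 6 higher and 4 lower were the same without DMSO replicate 1.

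**Figure D2:**
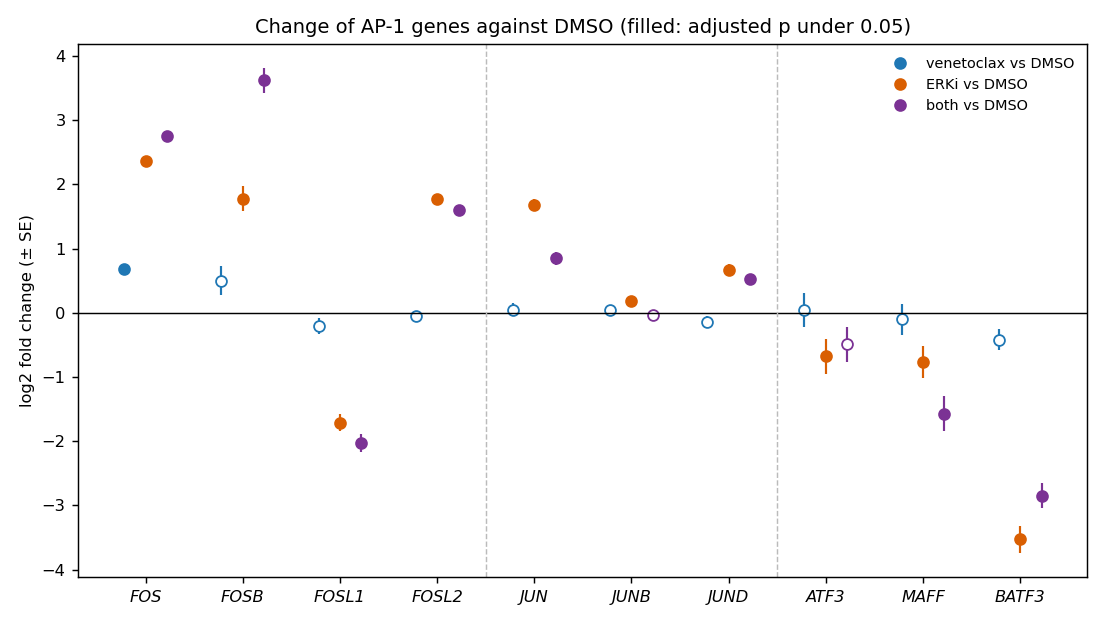
Log2 fold change against DMSO (y axis, ± SE) of each AP-1 gene (x axis) for venetoclax, ERKi and both drugs, from edgeR fits of 12 libraries; filled points passed an adjusted p of 0.05, and dashed lines part the FOS, JUN and other members. The venetoclax points run from -0.42 for BATF3 to 0.69 for FOS, which alone passed, and ERKi and combination points run from -3.53 to 3.62.

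With venetoclax alone, set against DMSO, FOS was the 1 member that changed. It held 48, 47.7 and 53.5 CPM, all above the DMSO libraries, a 1.61-fold rise (log2 fold change 0.69, SE 0.0598, adjusted p = 7.14e-06). Across all genes 0.402% were called, 0.0198% higher and 0.382% lower, so FOS was 1 of 3 genes called higher. That number of genes called higher was 17 without DMSO replicate 1, 11 with DESeq2, 74 without a filter on low counts, and between 1 and 4 in the other alternatives. The call held in all 20 alternatives, with an adjusted p of 0.0038 at most. No other member passed by edgeR, DESeq2 or limma-voom. FOSB (0.5, SE 0.222) and BATF3 (-0.42, SE 0.163) had an unadjusted p under 0.05, at 0.0371 and 0.0202, and adjusted p of 0.519 and 0.465. The 3 JUN genes lay between -0.14 and 0.05 with standard errors of 0.0767 to 0.106.

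Under both drugs, 5 members were higher than with DMSO and 3 lower, where 63.8% of all genes were called (30.4% higher and 33.4% lower). FOSB held 14.6, 14.1 and 13.1 CPM, against 0.821, 1.51 and 1.04 with DMSO, the largest rise among the members at 12.3-fold (log2 fold change 3.62, SE 0.191, adjusted p = 6.74e-11). FOS held 211, 213 and 201 CPM, 6.74-fold above DMSO (2.75, SE 0.0586, adjusted p = 2.55e-15). FOSL2 (1.6, SE 0.0421), JUN (0.85, SE 0.102) and JUND (0.52, SE 0.0903) rose as well. BATF3 (-2.85, SE 0.196), FOSL1 (-2.03, SE 0.139) and MAFF (-1.57, SE 0.269) fell. JUNB (-0.04, SE 0.0772, adjusted p = 0.647) and ATF3 (-0.49, SE 0.275, adjusted p = 0.131) did not pass. Set against venetoclax alone, to read what ERKi added, the combination had 5 members higher and 3 lower, with 66.2% of all genes called (32.1% higher and 34.2% lower). The log2 fold changes were 3.12 for FOSB, 2.07 for FOS, 1.65 for FOSL2, 0.8 for JUN and 0.66 for JUND, and -2.43 for BATF3, -1.83 for FOSL1 and -1.47 for MAFF. These comparisons share the combination libraries. ATF3, at -0.53, passed there only without venetoclax replicate 1 (adjusted p = 0.0396).

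The summed FOS family rose more than the summed JUN family. In CPM per kb, the 4 FOS genes added up to 36.3 to 38.4 with DMSO, 40.8 to 43.2 with venetoclax, 128 to 131 with ERKi and 136 to 138 in the combination. The 3 JUN genes added up to 39.2 to 49, 41.4 to 42.4, 58.8 to 62.2 and 49 to 52.6. The ratio of FOS to JUN family RNA was 0.882 ± 0.126 with DMSO, 0.998 ± 0.0362 with venetoclax, 2.14 ± 0.0819 with ERKi and 2.68 ± 0.0872 under both drugs (SD, n = 3). Within the FOS family, FOS itself was 24.2% to 26.9% of the sum with DMSO and 35.4% to 38.2% with venetoclax. It was 37.2% to 38.8% with ERKi and 45.5% to 47.6% in the combination. FOSL2 was 60.3% to 63%, 51% to 53.8%, 59.5% to 61.3% and 49.7% to 51.9% in the same order. JUN was 3.87% to 4.87% of the JUN family with DMSO and 4.35% to 5.18% with venetoclax. Its share was 8.79% to 10.7% with ERKi and 6.28% to 7.27% in the combination. These sums, shares and ratios rest on chosen members and on the exon lengths used, and are given without a test.

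**Figure D3:**
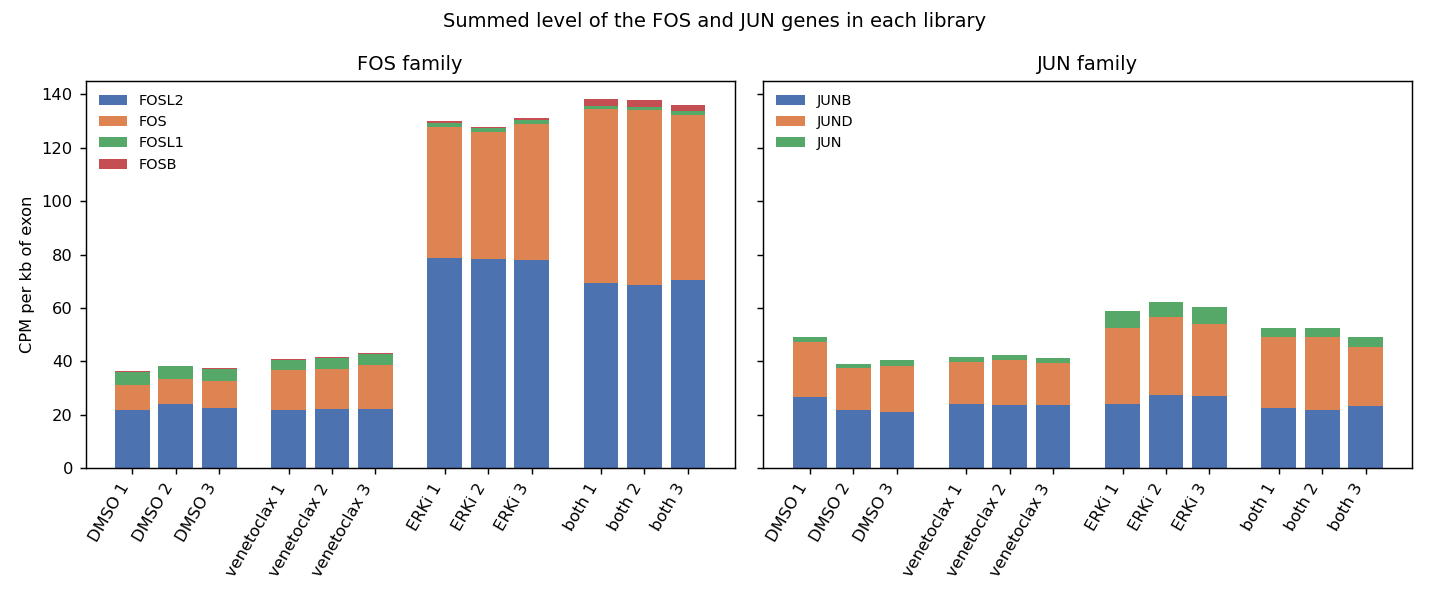
Summed RNA of the FOS genes (left) and JUN genes (right) in CPM per kb of exon (y axis, from 0) in each library (x axis), with the part of each gene in colour. The FOS sums with ERKi or both drugs lie between 128 and 138, against 36.3 to 43.2 in the other libraries, while the JUN sums stay between 39.2 and 62.2.

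Adding venetoclax to ERKi, read from the combination against ERKi alone, moved members both ways. FOSB, FOS and BATF3 were higher, and JUN, MAFF, JUNB and FOSL2 were lower, where 50.9% of all genes were called (26.5% higher and 24.3% lower). With scaling by library totals alone, 34.8% of the called genes were higher, against 52.1% with the scaling used here. FOSB went from 4.26, 3.28 and 4.1 CPM with ERKi to 14.6, 14.1 and 13.1 in the combination. The groups lay far apart, at a 3.59-fold rise (log2 fold change 1.85, SE 0.165, adjusted p = 1.77e-07), and 0.547% of all genes had a higher value. FOS was 1.31-fold higher (0.39, SE 0.0524, adjusted p = 1.3e-05), with every combination library above every ERKi library. JUN went from 21.9, 19.4 and 23.1 CPM to 11.9, 11.7 and 12.6, without overlap, and was 1.77-fold lower (-0.83, SE 0.0946, adjusted p = 2.58e-06). It stayed above the DMSO libraries. FOSL2 was lower by a small step, from 558 to 564 CPM to 491 to 506 (-0.17, SE 0.0405, adjusted p = 0.00228).

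The other calls of that comparison were less secure. MAFF (-0.81, SE 0.279, adjusted p = 0.0226) had ERKi counts of 54, 56 and 54 and combination counts of 27, 39 and 17. It lost its call without ERKi replicate 1 (0.0505) or 2 (0.0511) or combination replicate 1 (0.0646) or 3 (0.111). BATF3 (0.68, SE 0.25, adjusted p = 0.0375) rested on ERKi counts of 14, 16 and 12 against combination counts of 18, 23 and 19. Its call was lost without ERKi replicate 1 (0.0683) or 3 (0.125) or combination replicate 2 (0.179) or 3 (0.0606), with DESeq2 (0.0736) and with limma-voom (0.138). JUNB (-0.22, SE 0.0766, adjusted p = 0.0249) lost its call without ERKi replicate 2 (0.106) or 3 (0.0817) or combination replicate 1 (0.0536) or 2 (0.0697). HOOK2, which overlaps JUNB, was higher by 0.59 (adjusted p = 0.000235). FOSL1 (-0.32, SE 0.15, adjusted p = 0.0985), JUND (-0.15, SE 0.0877, adjusted p = 0.166) and ATF3 (0.19, SE 0.29, adjusted p = 0.617) did not pass.

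The interaction tests whether the venetoclax effect differed with ERKi present, as the venetoclax effect with ERKi minus that without, in log2 units. It was called for 4 of the 10 members, with 39.2% of all genes called (21.3% above and 18.0% below the sum of the single effects). With scaling by library totals alone, 38.3% of the called genes lay above, against 54.2% with the scaling used here. FOSB (1.34, SE 0.278, adjusted p = 0.00127) and BATF3 (1.1, SE 0.299, adjusted p = 0.00834) lay above the sum. JUN (-0.88, SE 0.142, adjusted p = 0.000177) and FOS (-0.29, SE 0.0795, adjusted p = 0.00795) lay below it. FOS thus rose with venetoclax both without and with ERKi, and the step was smaller with ERKi on the log2 scale. In mean CPM the step was larger with ERKi, from 159 to 208, than without, from 30.9 to 49.7. JUN was at 0.05 with venetoclax alone and at -0.83 on top of ERKi. JUNB at -0.26 (SE 0.108, adjusted p = 0.0708) was called without DMSO replicate 1 (0.000697) or ERKi replicate 1 (0.0397), FOSL2 at -0.12 (SE 0.0584, adjusted p = 0.117) without DMSO replicate 2 (0.032), and MAFF at -0.71 (SE 0.368, adjusted p = 0.141) without combination replicate 2 (0.0304).

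**Figure D4:**
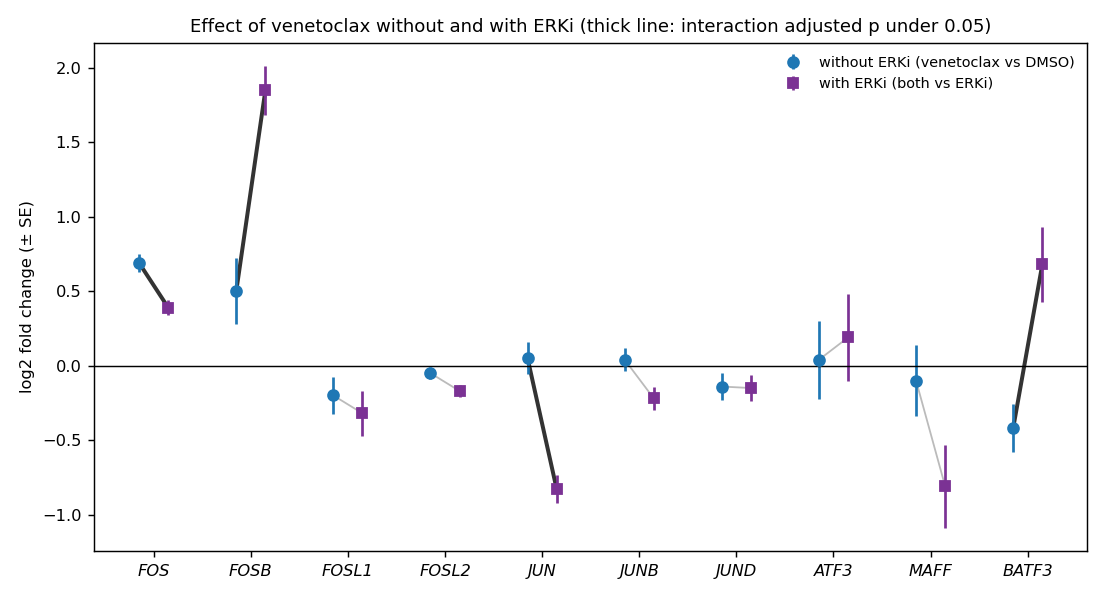
Log2 fold change (y axis, ± SE) of each AP-1 gene (x axis) for venetoclax without ERKi (circles, against DMSO) and with ERKi (squares, against ERKi alone); thick lines mark an interaction with an adjusted p under 0.05. FOSB climbs from 0.5 to 1.85, JUN drops from 0.05 to -0.83, and BATF3 crosses from -0.42 to 0.68.

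Genes around AP-1 were taken from 6 lists of its partners, regulators and targets, and those named have a mean of at least 5 CPM. The shares to read the lists against are those of all genes, 34.5% higher and 35.2% lower with ERKi, and 26.5% higher and 24.3% lower in the combination against ERKi. Among other bZIP genes, 14 of 27 tested rose with ERKi and 7 fell, with a median of 0.31. The rises included NFE2, a partner of small MAF proteins, from 8.64 to 77.5 CPM (3.16, SE 0.0883, adjusted p = 1.75e-14), and CEBPB, a myeloid C/EBP factor (1.45). The falls included the amino acid stress factors ATF5 (-1.02) and ATF4 (-0.8). Against ERKi, the combination had 4 of them higher, with BATF, the paralogue of BATF3, at 0.43 and JDP2, a repressive partner of JUN, at 0.42. It had 11 lower, with NFE2 at -1.05 and CREM at -0.51.

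Upstream genes changed in both directions. Of 21 genes of the JNK and p38 kinase branches, which phosphorylate JUN and ATF proteins, 8 rose and 9 fell with ERKi with a median of 0.01, where 69.7% of all genes were called. MAPK8IP3, a scaffold of JNK, was at 1.03 and MAP3K1, a kinase that feeds JNK, at 0.76, and the p38 gene MAPK12 was at -1.09 and the p38 activator MAP2K6 at -0.91. In the combination against ERKi 7 were higher and 7 lower, with MAPK8IP3 at 0.6, MAPKAPK3 at 0.54, MAP3K1 at -0.66 and MAP2K6 at -1.6. Serum response factor and its partners, which drive FOS, moved little: 3 of 6 rose and 2 fell with ERKi, with ELK3 at 0.37, ELK4 at 0.23, SRF at -0.3 and ELK1 at -0.38. Against ERKi, SRF (0.36) and MRTFA (0.27) were higher in the combination and MRTFB (-0.33) and ELK4 (-0.33) were among the 3 lower.

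Of 12 genes for the turnover of AP-1 mRNA and protein, 3 rose and 5 fell with ERKi, near the 69.7% of all genes called. The rises included ZFP36L2 (1.39) and ZFP36 (1.08), whose proteins speed the decay of mRNAs with AU-rich elements such as that of FOS. The falls included ELAVL1 (-0.99), whose protein stabilises such mRNAs, and KHSRP (-0.95), another decay factor. In the combination against ERKi 4 were higher, with KHSRP at 0.51 and UBE2O at 0.33, and 4 lower, with TRIB1, a scaffold of the ubiquitin ligase COP1, at -1.14 and ZFP36 at -0.33. Among 21 other immediate early genes 11 rose and 7 fell with ERKi, with a median of 0.4. KLF4 (2.76) and KLF2 (1.78), both zinc finger factors, were among the rises. EGR1, a direct target of the ERK pathway, fell from 15 to 0.749 CPM (-4.32, SE 0.188, adjusted p = 3.04e-12), and MYC was at -0.92. Adding venetoclax gave 9 higher and 7 lower, with EGR1 at 1.39, KLF10 at 0.59, BTG2 at -1.3 and KLF6 at -0.65.

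Of 21 tested genes with well-known AP-1 sites, 6 rose and 10 fell with ERKi (34.5% and 35.2% of all genes), with a median of -0.25. VIM, an intermediate filament (1.07), and LMNA, a nuclear lamin (0.9), rose, and CCND1, cyclin D1 (-3.48), and PLAUR, the urokinase receptor (-1.07), fell. In the combination against ERKi 2 were higher and 11 lower (26.5% and 24.3% of all genes), with the cytokine gene IL1B at -1.65, from 27 to 8.58 CPM, and the metallothionein MT2A at -0.63. With venetoclax alone, edgeR, DESeq2 and limma-voom called 0 genes in 5 of the 6 lists. Unadjusted p values under 0.05 numbered 5 of 27 bZIP partners, 2 of 21 JNK and p38 genes, 0 of 6 SRF genes, 1 of 12 turnover genes and 4 of 21 AP-1 site genes. The exception was BTG2, an antiproliferative gene among the other immediate early genes, at -0.43, with 3 of 21 under 0.05. Lists are described by counts and medians only, and the median of all genes was within 0.01 of 0 in each comparison.

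**Figure D5:**
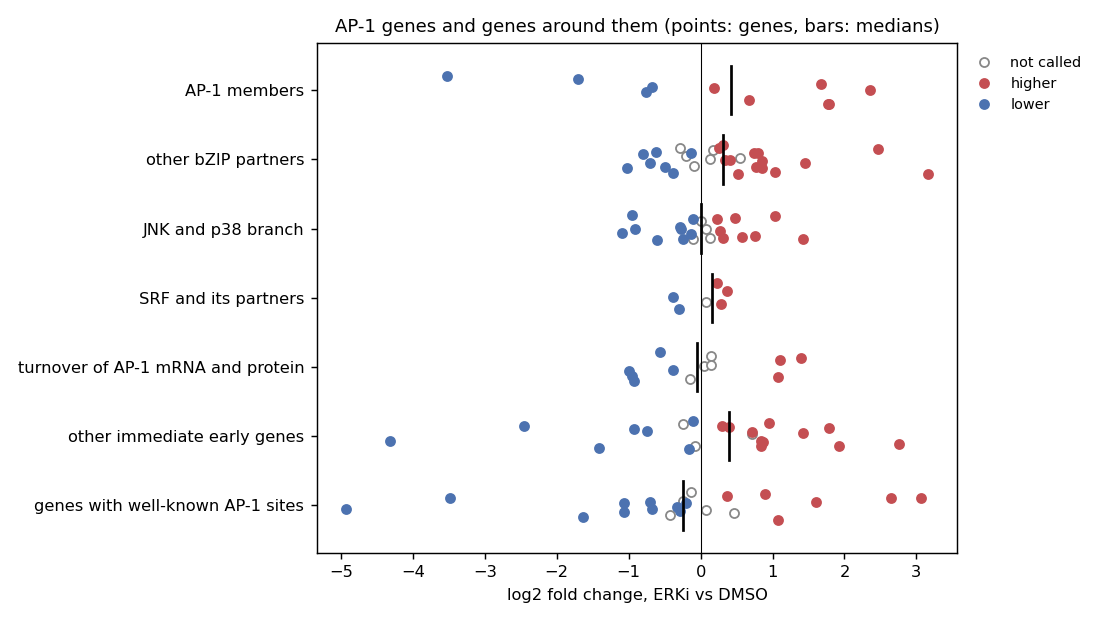
Log2 fold change with ERKi against DMSO (x axis) of the AP-1 members and of the tested genes of 6 lists around them (rows); each point is a gene, red higher and blue lower at an adjusted p under 0.05, open not called, and black bars are medians. Every list holds rises and falls, and the medians run from -0.25 for genes with AP-1 sites to 0.42 for the AP-1 members.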

How the data were processed

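Poly(A) RNA of 12 OCI-AML3 libraries, 3 per group by the sample titles, was sequenced as paired ends. The deposited table holds raw read counts per gene symbol; HISAT2, HTSeq, DESeq2 and the hg38 build are named, per the submitters' processing notes, without versions, annotation release or strand setting. The values were whole numbers, and 0 rows named no gene. As the labels do not say whether replicates are separate cultures, the p-values reflect the spread between these samples and this may be technical.

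The counts went into edgeR 4.0.16 (R 4.3.3). The filterByExpr step, with a minimum count of 10 and a minimum total of 15, left 15173 genes. After TMM scaling, a model with a term per group used all 12 libraries and left 8 residual degrees of freedom. Quasi-likelihood tests were adjusted by Benjamini-Hochberg over these genes, with calls at an adjusted p below 0.05. Standard errors are log2 fold changes over the root of F. CPM are counts relative to the scaled library size. Since TMM assumes that most genes keep their level, changes are relative to the bulk of genes. Gene positions and exon lengths are from GENCODE 29 (GRCh38), which may not be the authors' annotation. The scripts were tested on simulated data.

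The members, lists and tests were chosen with earlier results of these data known. Named genes were the members and, per list, up to 2 called genes at each end in ERKi against DMSO and in the combination against ERKi (mean CPM of at least 5, groups not overlapping), genes overlapping a member, and the 2 protein-coding genes most correlated with each member. The alternatives were DESeq2 1.42.0 and limma-voom (limma 3.58.1), RLE factors, a CPM filter (1 in 3 libraries) or none, a block on the replicate number, fits of the compared libraries alone, and leaving out each library. Scaling by library totals was added after the data were seen. Figures were drawn with matplotlib 3.10.9.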

Additional observations from a re-analysis of the deposited data

Results flagged for a closer look

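The effect of venetoclax differed between cells without and with ERKi for 4 of the 10 AP-1 genes, by the edgeR interaction test adjusted over all 15173 genes. Across all genes 39.2% were called, so the share among the members was near that of all genes. FOSB departed from the sum of the single effects by 1.34 on the log2 scale (adjusted p = 0.00127), with venetoclax effects of 0.5 without and 1.85 with ERKi. BATF3 departed by 1.1 (adjusted p = 0.00834), from -0.42 to 0.68, on 12 to 23 counts per library in the ERKi and combination groups. Neither the -0.42 of BATF3 nor the 0.5 of FOSB was called by edgeR (adjusted p = 0.465 and 0.519). The 0.68 of BATF3 lost its call in 9 of 20 alternatives. JUN departed by -0.88 (adjusted p = 0.000177), from 0.05 to -0.83. FOS departed by -0.29 (adjusted p = 0.00795), from 0.69 to 0.39.

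The 4 calls held in all 19 alternatives of the interaction, with an adjusted p of at most 0.00588 for FOSB, 0.0358 for BATF3, 0.000897 for JUN and 0.0304 for FOS.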

How the results depend on the processing

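Of 1190 recomputed values of the 60 member results, 1125 kept their direction and their side of the threshold, 38 lost a call, 11 gained one, and 16 changed sign, 0 of these among called results. With each library left out in turn, called members numbered 1 to 1 for venetoclax against DMSO, 8 to 10 for ERKi, 8 to 8 for the combination, 8 to 9 for the combination against venetoclax, 5 to 7 against ERKi and 4 to 5 for the interaction. Called genes over the whole table ran from 33 to 98, 9996 to 10736, 8934 to 10085, 9356 to 10713, 6824 to 8632 and 5216 to 6181. For venetoclax against DMSO, 61 genes were called, 98 without DMSO replicate 1, 34 and 33 without venetoclax replicate 1 or 3, 242 without a filter and 33 with only the libraries compared.

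The sign changes were of values near 0. Over all alternatives, the interaction ran from -0.12 to 0.09 for JUND and from -0.03 to 0.4 for ATF3. Venetoclax against DMSO ran from -0.02 to 0.1 (JUN), -0.03 to 0.15 (JUNB), -0.21 to 0.22 (ATF3) and -0.37 to 0.05 (MAFF). The combination against DMSO ran from -0.11 to 0.06 for JUNB. For the interaction, JUND was at 0.02 without a filter, 0.09, 0.01, 0.02, 0.02 and 0.07 without DMSO replicate 2, DMSO replicate 3, venetoclax replicate 2, ERKi replicate 2 and combination replicate 3, and ATF3 at -0.01 and -0.03 without DMSO replicate 3 or venetoclax replicate 1. For venetoclax against DMSO, ATF3 was at -0.08 and -0.21 and MAFF at 0.04 and 0.05 without DMSO replicate 1 or venetoclax replicate 2, JUNB at -0.0015 and -0.03 without DMSO replicate 2 or 3, and JUN at -0.02 without venetoclax replicate 3. JUNB in the combination against DMSO was at 0.06 without DMSO replicate 1. The cause was not tested.

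Deviations of same-numbered libraries from their group means were weakly correlated, at -0.074 to 0.094. Such pairs ran from 0.024 to 0.063 between DMSO and venetoclax, and from -0.074 to -0.015 between venetoclax and the combination. Weak correlations cannot show whether same-numbered libraries were handled together. With the replicate number as a block, 9 members were called for ERKi against DMSO (JUNB lost its call, adjusted p = 0.0622), and the other 59 member results kept theirs. Without a filter, calls were lost for JUNB (0.0657) and ATF3 (0.0666) with ERKi against DMSO and for FOSL2 (0.0516) and BATF3 (0.0686) in the combination against ERKi. With only the libraries compared, JUNB with ERKi (0.124) and BATF3 in the combination against ERKi (0.087) lost theirs and JUND there gained one (0.0459), and the CPM filter gave JUNB one for the interaction (0.0488). Scaling by library totals put the median of all genes at 0.102 for ERKi against DMSO, where ATF3 lost its call (0.0668), and at -0.126 for the combination against ERKi, where FOSL1 (-0.44, adjusted p = 0.0198) and JUND (-0.27, 0.0133) were then called lower and BATF3 was not called (0.092), and it called JUNB (-0.36, 0.011) and FOSL2 (-0.23, 0.00703) for the interaction. The lowest counts were 16 for ATF3, 17 for FOSB, 40 for FOSL1, 17 for MAFF and 12 for BATF3, and the effect of depth on their calls was not tested.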

Other observations

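The genes whose levels followed each member most closely over the 12 libraries were taken from 9658 protein-coding genes with a mean of at least 5 CPM, by Pearson's r of log2 CPM. The 12 points are 4 groups of 3, so r mostly reflects the order of the groups, and it is given as a description without a test. It does not measure the size of a change. FOSL2 was followed by PDE7A and NACC2 (r = 0.999 each), and NACC2 went from 108 CPM with DMSO to 101 with venetoclax, 299 with ERKi and 271 in the combination. PDE7A held 209, 207, 411 and 380 CPM in that order. JUN was followed by RSRP1 (0.995) and RIN3 (0.993), and RSRP1 held 51.8, 52.6, 184 and 101 CPM in the same order. FOS was followed by RPS23 (0.985), at 850, 909, 1120 and 1190 CPM, and PECAM1 (0.983), at 11.8, 13.5, 75.1 and 92.7 CPM. FOSB was followed by TMEM131L (0.988), at 92.4, 93.9, 104 and 121 CPM, and SKIL (0.986), at 10.8, 11.9, 16.8 and 32.5 CPM. RPS23 and TMEM131L thus moved by smaller folds than FOS and FOSB.

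Among the members that fell, FOSL1 was followed by ALDH7A1 (0.995) and MSMO1 (0.993), an enzyme of cholesterol synthesis, and BATF3 by MASTL (0.994), a mitotic kinase, and DNAJB1 (0.993), a heat shock cochaperone. The closest genes to JUND were OSBPL7 (0.98) and USP35 (0.975), and those to MAFF were E2F5 (0.962) and NEK6 (0.946). JUNB (PPIL3 at 0.896, KIAA1191 at 0.892) and ATF3 (ZNF749 at 0.901, ZNF398 at 0.899) had the lowest r. ATF3 had 16 to 41 counts per library, and the reason for the lower r was not tested.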
